A study of Bos taurus with 18 samples.

Results

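CYR61 (ENSBTAG00000009844), NOV (ENSBTAG00000002080), IGFBP3 (ENSBTAG00000003994) and APOLD1 (ENSBTAG00000002362) were described in the rumen papillae of dairy cows, as 4 of the 24616 genes in the deposited expression table. They were chosen by name, and the rows were found by the Ensembl identifiers that the study pairs with these names. All 4 had read counts scaled to library size (CPM) over 1 in all 18 cows and passed the filter on low values. By its own edgeR test, the study itself listed these genes among 22 that were higher in cows fed alfalfa hay than in cows fed rice straw, on the same samples. The direction in that comparison is therefore not independent evidence, and the other comparisons share cows with it. By qRT-PCR, the study also reported lower IGFBP3 in cows fed rice straw than in cows fed alfalfa hay. CYR61 tended to be lower there.

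The papillae came from 18 lactating Holstein cows, with 6 cows on each of 3 total mixed rations that contained alfalfa hay (AH, written AL in the labels), corn stover (CS) or rice straw (RS) as the main forage. Every ration also held concentrate and corn silage, and the cows received it for 14 weeks before slaughter. Papilla RNA of each cow was sequenced as 1 bulk library, with 16099131 to 32252177 reads on genes. TGM3 and DSG1, which belong to the cornified envelope and the desmosomes of stratified epithelium, were over 1 CPM in all 18 cows, at 133 to 2167 CPM and 3.67 to 101 CPM.

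Rumen papillae are finger-like folds of the rumen wall, in which a stratified squamous epithelium that takes up volatile fatty acids covers a core of connective tissue and vessels. CYR61 (CCN1) and NOV (CCN3) belong to the CCN family of secreted matricellular proteins, which bind integrins and matrix proteoglycans and alter adhesion, migration and growth of the cells around them. CYR61 is a classic immediate-early gene and a target of the transcriptional coactivators YAP and TAZ, while NOV is often linked with growth restraint. IGFBP3 is the main carrier of insulin-like growth factors in plasma and also limits the access of these ligands to their receptor in tissues. APOLD1, or apolipoprotein L domain containing 1, is an early response gene best known from endothelial cells.

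The first question was how far the secreted CCN proteins differed in expression among the diets. The CYR61 level in AH cows ran from 30.4 CPM through a median of 52.9 CPM to 223 CPM. It ran from 12.3 through 43.0 to 96.6 CPM in CS cows and from 8.38 through 24.7 to 35.1 CPM in RS cows. The groups overlapped, because the lowest AH cow lay below 2 RS cows, but 5 of the 6 AH cows stood above every RS cow. Mean CYR61 expression was 91.4 ± 76.7 CPM (SD, n = 6) in AH cows and 24.8 ± 9.88 CPM in RS cows, a 3.69-fold ratio with a log2 ratio of 1.88 (SE 0.55). The first and the fifth AH cow, at 146 and 223 CPM, carried much of that mean, and the log2 ratio of medians was 1.10. Cows fed CS lay between them at 46.8 ± 31.6 CPM. A two-sided exact permutation test of the difference in mean CPM between AH and RS gave p = 0.0065, and the smallest p that 6 cows against 6 allow is 0.0022. Without the second RS cow, which had the lowest CYR61 level of all, the exact p was 0.0584. It also rose without any other single RS cow, to between 0.0325 and 0.0498, and was 0.0022 to 0.0065 without single AH cows.

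NOV showed the same order of means with less spread. Its level in AH cows ran from 64.8 CPM through a median of 131 CPM to 238 CPM. The lowest, median and highest values were 33.2, 71.0 and 118 CPM in CS cows and 49.7, 57.4 and 85.0 CPM in RS cows. Only the fourth AH cow overlapped the RS cows, and the other 5 AH cows stood above all of them. The means were 137 ± 59.0 CPM in AH, 71.7 ± 28.1 CPM in CS and 63.2 ± 15.6 CPM in RS (SD, n = 6 each). Between AH and RS the log2 ratio was 1.12 (SE 0.29) by means and 1.19 by medians, and the exact permutation p was 0.0065.

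IGFBP3 separated AH from RS to a similar degree. In AH cows it ran from 65.5 CPM through a median of 103 CPM to 161 CPM, and in RS cows from 33.9 through 53.5 to 69.7 CPM. The CS cows spread from 40.4 through 71.0 to 153 CPM, and the third and the fifth of them reached 149 and 153 CPM, which is close to the highest AH cow. Mean IGFBP3 expression was 109.8 ± 33.6 CPM in AH, 87.7 ± 52.6 CPM in CS and 53.3 ± 14.1 CPM in RS (SD, n = 6 each). The log2 ratio of AH to RS was 1.04 (SE 0.24) by means and 0.95 by medians, with an exact permutation p of 0.0065.

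APOLD1 was the least clear of the 4 genes. Its level in AH cows ran from 19.0 CPM through a median of 24.5 CPM to 87.9 CPM, where the second and the fifth cow, at 75.0 and 87.9 CPM, stood far above the other 4. In CS cows it ran from 7.84 through 20.1 to 38.8 CPM, and in RS cows from 9.92 through 18.1 to 29.0 CPM. Only those 2 AH cows exceeded every RS cow. Means were 42.0 ± 30.9 CPM in AH, 22.4 ± 11.6 CPM in CS and 18.7 ± 6.76 CPM in RS (SD, n = 6 each). The log2 ratio of AH to RS was 1.17 (SE 0.48), and the exact permutation p of 0.0801 did not pass 0.05. The ratio of medians gave a smaller log2 value of 0.44.

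**Figure D1:**
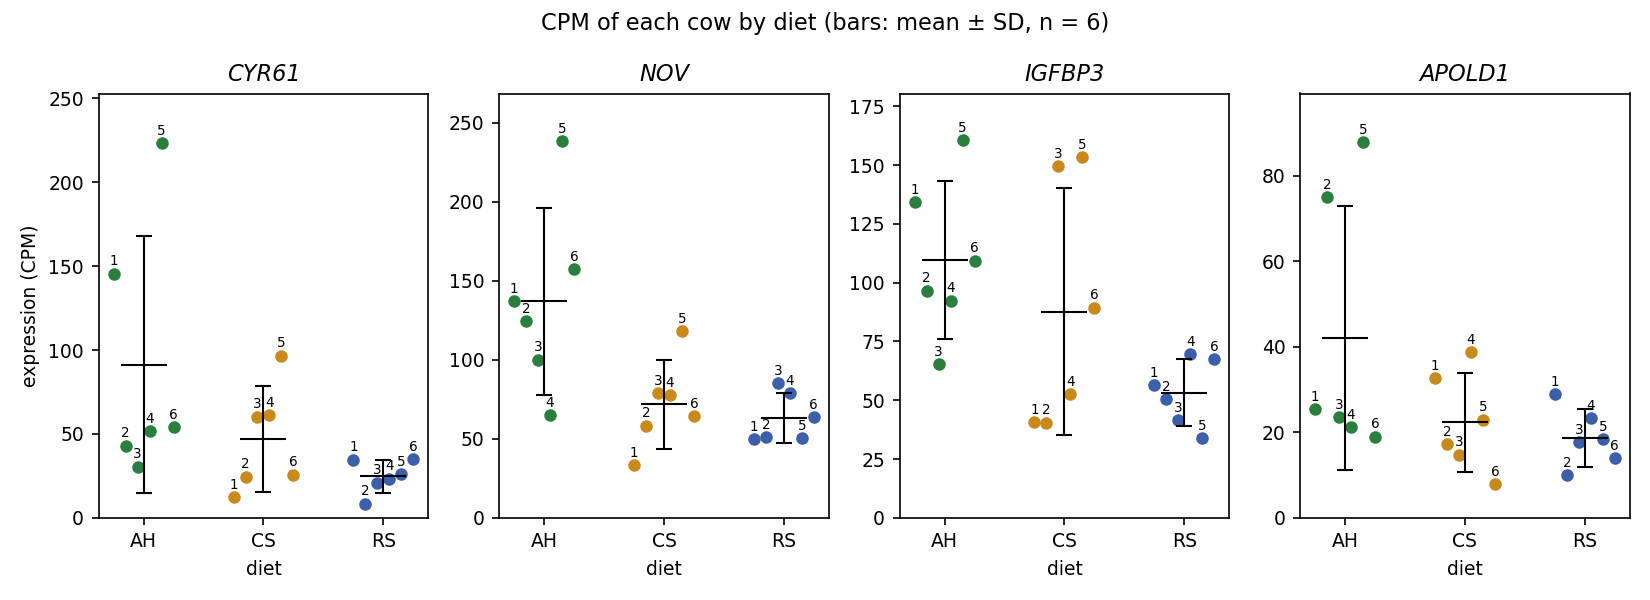
Expression of CYR61, NOV, IGFBP3 and APOLD1 in CPM (vertical axes, each starting at 0) in each cow by diet, with replicate numbers beside the points and bars for the mean ± SD of 6 cows. The fifth AH cow is the highest point in all 4 panels, and the RS cows sit closest together.

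None of the 4 genes was called differentially expressed (DE) between AH and RS in the limma fit used here, whose test is not that of the study. A call asks for a limma p under 0.05 after Benjamini-Hochberg adjustment over all 13284 genes tested, and for a ratio of mean CPM beyond 2-fold. In AH vs. RS 0.00753% of the genes met it. In limma, NOV had an adjusted p of 0.842, while CYR61, IGFBP3 and APOLD1 each had an adjusted p of 1.00. The unadjusted limma p was 0.0046 for CYR61, 0.0017 for NOV, 0.0048 for IGFBP3 and 0.0353 for APOLD1. Of the 13284 genes, 55.3% had the higher mean in AH. All 4 genes were under an unadjusted 0.05 and higher in AH, where 0.956% of all genes were. Likewise, all 4 exceeded 2-fold, against 0.730% of all genes, and 3 of the 4 had an exact p under 0.05 with the higher mean in AH, against 1.36%. No gene of the 4 had every AH cow above every RS cow, as 0.0753% of all genes had. Because the study chose its list on these cows, these shares describe the genes and do not support the difference. The shares over all genes are also not those of equal diets. In either direction, 238 of the 13284 genes had an unadjusted limma p under 0.05, fewer than the 1 in 20 that equal diets give on average.

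Ranked by the AH to RS ratio of mean CPM from the highest, CYR61 was number 10, APOLD1 number 57, NOV number 70 and IGFBP3 number 82 of the 13284 genes. In DESeq2 on the reads recovered from CPM, the adjusted p was 0.0514 for CYR61, 0.0733 for NOV, 0.0794 for IGFBP3 and 1.00 for APOLD1. The edgeR quasi-likelihood test on the same reads gave adjusted p-values of 0.605, 0.589, 0.589 and 0.9999 in this order. Over 24 alternative settings the adjusted p of CYR61 ran from that DESeq2 value to 1.00, and no setting called any of the 4 genes. The papillae were sequenced as whole tissue, so fewer cells that express a gene and less RNA per cell cannot be told apart.

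AH and CS cows were compared because the paper describes these diets as alike in physical form and AH as higher in energy density. In the paper's sieving, the shares of the larger particles still differed between these diets. By mean CPM, all 4 genes were higher in AH, as were 51.4% of all genes tested. NOV had the most even difference, with a log2 ratio of 0.93 (SE 0.34), the AH cow above the CS cow in 32 of 36 pairs of cows, and an exact permutation p of 0.0238. NOV was thus 1 of the 4 genes with an exact p under 0.05 and the higher mean in AH, as 1.45% of all genes were. This exact p was not adjusted for the 12 exact tests on the 4 genes. That p lay above 0.05 without the first (0.0606), second (0.0541) or sixth (0.0519) CS cow. The unadjusted limma p of NOV was 0.0045, where 1.23% of all genes were under 0.05 and higher in AH. CYR61 had a log2 ratio of 0.97 (SE 0.63) and an exact p of 0.247, and APOLD1 one of 0.91 (SE 0.53) and an exact p of 0.232. IGFBP3 differed least, at 0.32 (SE 0.40) and an exact p of 0.396. The difference in mean log2(CPM + 0.5) of IGFBP3 was 0.49, with an unadjusted 95% interval from -0.18 to 1.16, so neither an equal level nor a 2-fold higher one in AH lay outside it. All 4 adjusted p-values from limma were 1.00, and 0.00753% of all genes were called DE.

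RS and CS cows were compared because the paper describes these diets as similar in energy density and RS as larger in particle size. This comparison gave the smallest log2 ratios in 3 of the 4 genes, with IGFBP3 as the exception. All 4 means were lower in RS, as were 55.5% of all genes. CYR61 was lower in RS by mean, with a log2 ratio of -0.92 (SE 0.46) and an exact permutation p of 0.130. Without the first CS cow, the lowest of that diet, its exact p was 0.0411. IGFBP3 followed at -0.72 (SE 0.39) and an exact p of 0.182, while NOV at -0.18 (SE 0.27) and APOLD1 at -0.26 (SE 0.37) had exact p-values of 0.541 and 0.524. None of the 4 was under an exact p of 0.05 and lower in RS, where 0.647% of all genes were. The interval of the limma difference for NOV ran from -0.72 to 0.48 and that for APOLD1 from -1.02 to 0.71. Adjusted p-values were 1.00 for all 4 genes, and 0% of all genes were called DE (0 genes in limma, edgeR and DESeq2, with 171, 245 and 291 genes at an unadjusted p under 0.05).

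**Figure D2:**
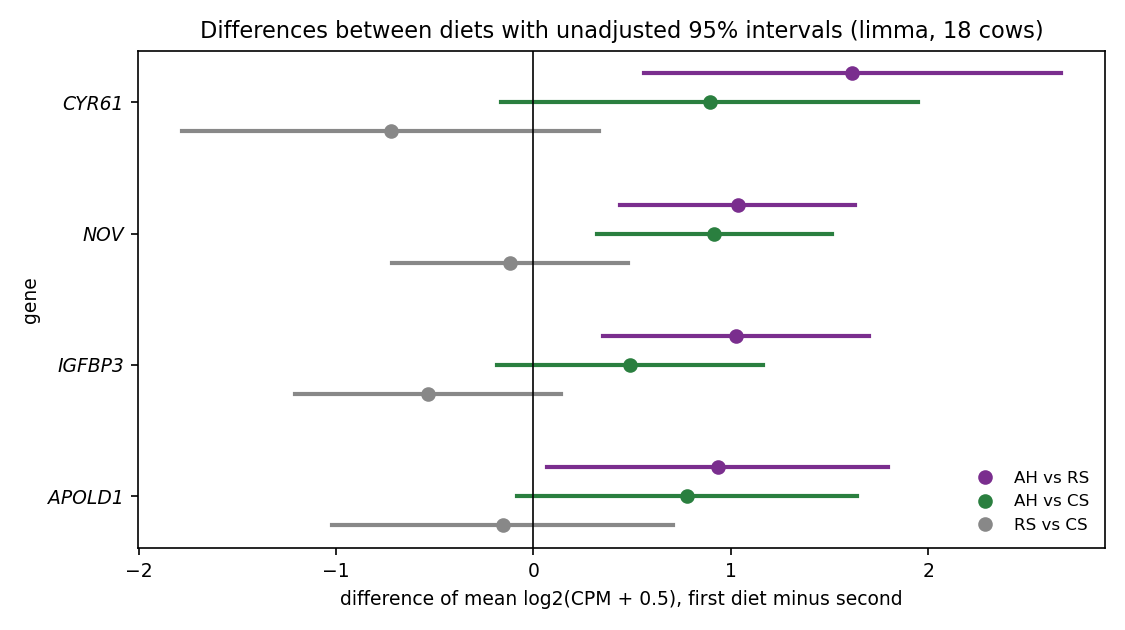
Differences between diets in mean log2(CPM + 0.5) for each gene (horizontal axis, first diet minus second), with unadjusted 95% intervals from limma over 18 cows. All 4 intervals of AH vs. RS lie above 0, of AH vs. CS only that of NOV does, and all intervals of RS vs. CS include 0.

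By mean CPM the order of the diets was AH, CS and RS for every one of the 4 genes. The neighbours AH and CS differed past an unadjusted exact p of 0.05 in NOV only, and the neighbours CS and RS in none. The median limma difference of the 4 genes was 1.03 between AH and RS, 0.84 between AH and CS and -0.35 between RS and CS. Over all genes tested these medians were 0.03, 0.04 and 0.01. As the study listed the 4 genes on these cows, the contrast with all genes is a description only.

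The genes differed in how much cows on one diet varied. The SD of log2(CPM + 0.5) within diets was 0.99 for CYR61, 0.79 for APOLD1, 0.62 for IGFBP3 and 0.54 for NOV, against a median of 0.49 over all genes tested. Among the genes within 0.5 log2 units of the same mean level, CYR61 stood at percentile 97.8 by this SD, APOLD1 at 92.0, IGFBP3 at 89.0 and NOV at 82.2. Variation between diets took 34.8% of the variance of CYR61, 46.8% of that of NOV, 35.5% of that of IGFBP3 and 24.2% of that of APOLD1, where the median gene had 4.60%. Because the study listed the 4 genes for a difference between diets on these cows, these shares are a description and not evidence. The median gene gives the observed background, not the share that equal diets would give. Counting error was small beside the spread between cows. The fewest reads behind any value were 213 for CYR61, 603 for NOV, 646 for IGFBP3 and 144 for APOLD1, which give a counting error of 6.85%, 4.07%, 3.93% and 8.33% of the value.

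Single cows stood out in several of the genes at once. The fifth AH cow had the highest level of all 18 cows in all 4 genes, and the first AH cow was among the highest 6 in all 4. At the other end, the second RS cow and the second CS cow were among the lowest 6 in all 4 genes. Without the fifth AH cow, the log2 ratio of AH to RS was 1.39 for CYR61, 0.89 for NOV, 0.90 for IGFBP3 and 0.81 for APOLD1. The log2 ratio of AH to CS without this cow was 0.47 for CYR61, 0.70 for NOV, 0.18 for IGFBP3 and 0.55 for APOLD1.

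**Figure D3:**
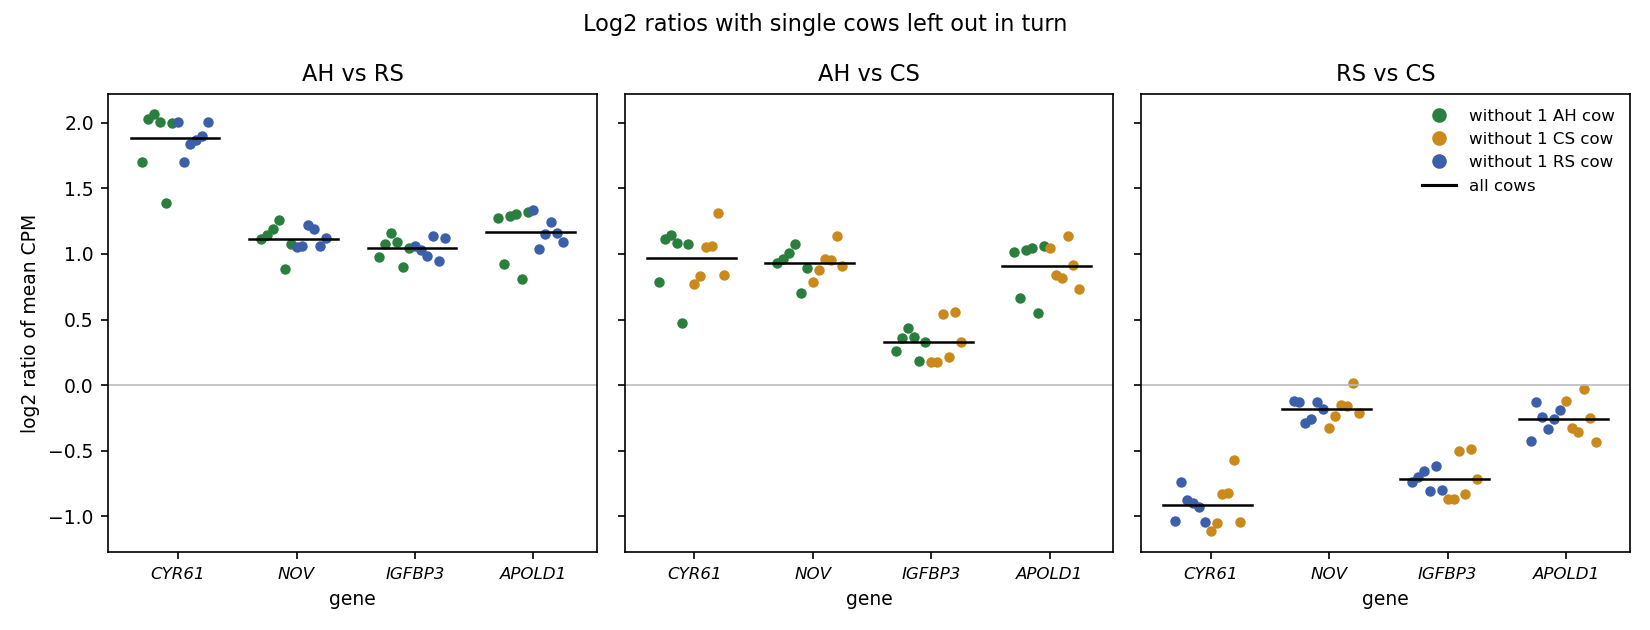
Log2 ratios of mean CPM (vertical axis) in the 3 comparisons with 1 cow left out at a time, coloured by the diet of that cow, and with all cows (black lines). The lowest AH vs. RS point of each gene is the one without the fifth AH cow, and NOV in RS vs. CS crosses 0 at 0.016 without the fifth CS cow.

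Whether the genes varied together from cow to cow was examined for the 6 pairs of genes on log2(CPM + 0.5). CYR61 and NOV had r = 0.79 (Spearman's rho 0.64) over the 18 cows, with a Benjamini-Hochberg adjusted permutation p of 2.4e-04 from an unadjusted 8.0e-05. For CYR61 and IGFBP3 r was 0.78 (rho 0.77, adjusted permutation p = 2.4e-04), and for NOV and IGFBP3 it was 0.74 (rho 0.75, adjusted permutation p = 7.2e-04). The adjusted permutation p of rho was 0.0104 for the first of these pairs and 0.0016 for the others. Leaving out the 2 cows farthest from the median of the first gene gave r = 0.64, 0.70 and 0.65. The study listed all of these genes as higher in AH than in RS on these cows, and values pooled over diets include that shared difference. For the 6 pairs, r and rho over the 18 cows and their p-values are therefore a description and not independent evidence. Taken as deviations from the mean of each diet, the 3 pairs had r = 0.70, 0.67 and 0.64, each with an adjusted permutation p of 0.0169.

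These relations differed in strength among the diets. CYR61 and NOV had r = 0.68 in AH cows, 0.96 in CS cows and 0.10 in RS cows, with exact p-values of 0.140, 0.0028 and 0.885 at 6 cows each. The values were 0.94, 0.72 and 0.20 for CYR61 and IGFBP3, with exact p-values of 0.0042, 0.117 and 0.724. For NOV and IGFBP3 they were 0.73, 0.75 and 0.25, with exact p-values of 0.0972, 0.0639 and 0.618. Differences in r between diets were not tested, and RS cows also had the lowest SD in CPM for each gene.

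The relations of APOLD1 with the other 3 genes were weaker in r and changed with the scale and with single cows. Its r with CYR61 was 0.51 (rho 0.42, adjusted permutation p = 0.0446 for r and 0.136 for rho). This r was lowest without AH cow 5, at 0.30 (adjusted permutation p = 0.353). Without AH cow 1 alone r was 0.54, and without AH cows 1 and 5 it was 0.30. The adjusted permutation p also exceeded 0.05 without RS cow 2 (r = 0.43, adjusted permutation p = 0.103). It was 0.0515 to 0.0564 without AH cow 3, RS cow 3, RS cow 5, CS cow 2 or CS cow 6. Without any other single cow it stayed under 0.05. The r of APOLD1 with NOV was 0.49 (rho 0.34) at an adjusted permutation p of 0.0510 for r and 0.199 for rho, and that with IGFBP3 was 0.24 (rho 0.21) at 0.346 and 0.394. As deviations from the diet means, r was 0.34, 0.23 and -0.05. On CPM in place of log2 values, r with CYR61 was 0.62 and r with NOV was 0.67, at adjusted permutation p-values of 0.0215 and 0.0167, so that NOV then passed. NOV also passed on the log2 scale without the sixth AH cow, the first RS cow, the first CS cow or the fourth CS cow (lowest adjusted permutation p = 0.0116). Without the 2 cows farthest from the median, NOV and IGFBP3 had r = 0.43 and 0.01 with APOLD1.

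**Figure D4:**
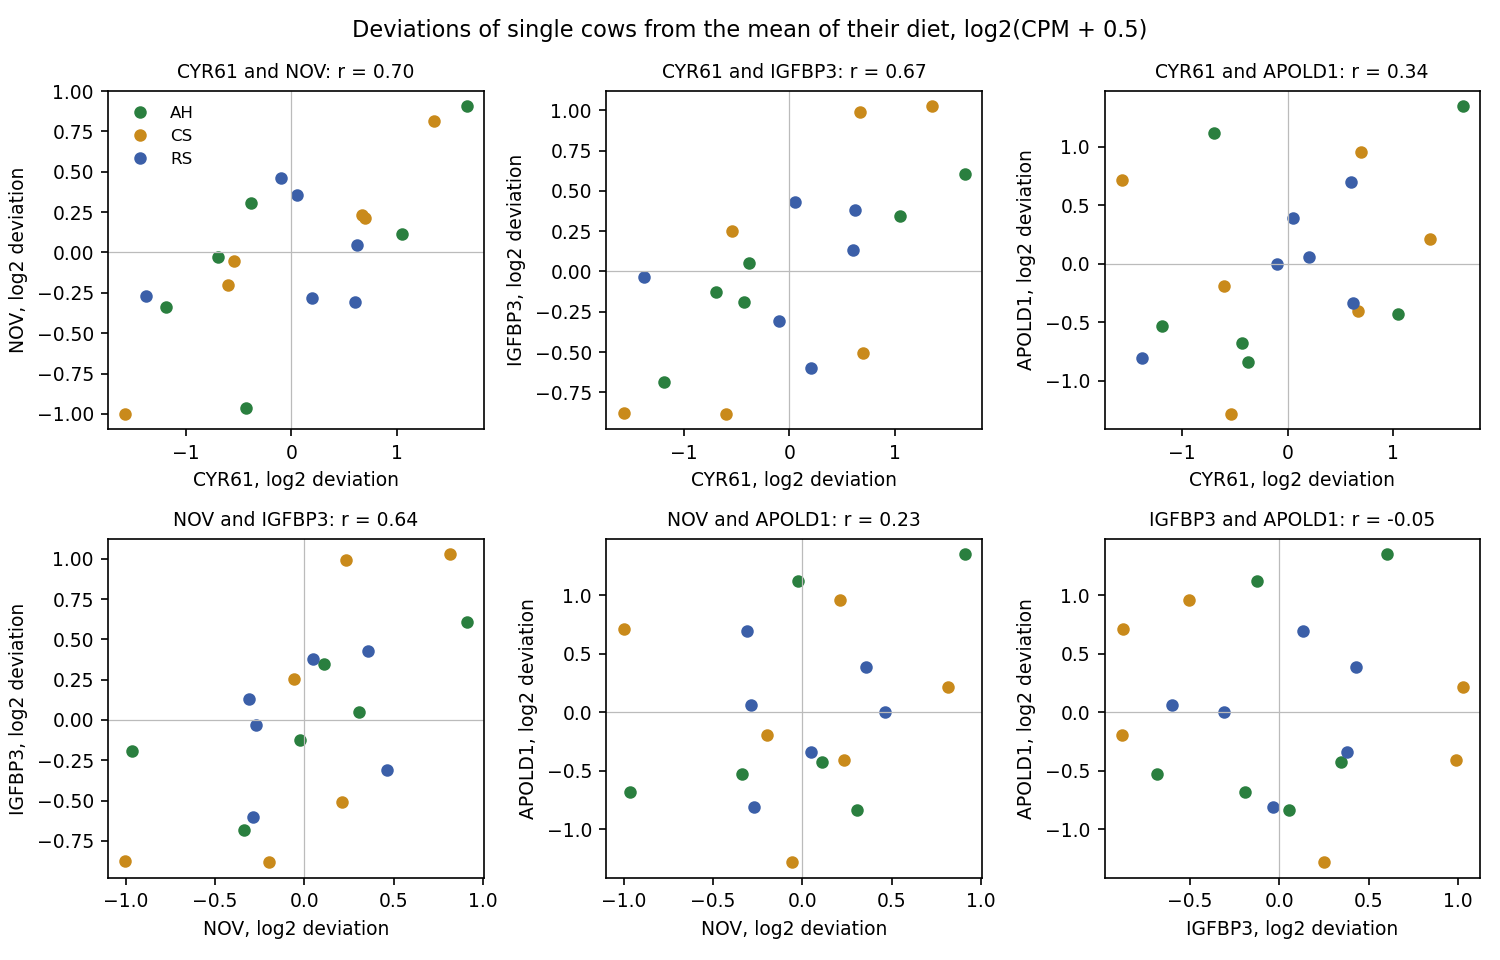
Deviations of single cows from the mean of their diet in log2(CPM + 0.5) for the 6 pairs of genes (both axes in log2 units, 18 cows coloured by diet). The points follow a rising line for the 3 pairs among CYR61, NOV and IGFBP3 (r = 0.64 to 0.70) and scatter for the 3 pairs with APOLD1 (r = -0.05 to 0.34).

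The balance between the genes within a cow was also compared, a choice made after the data had been seen. The mean log2 ratio of CYR61 to NOV was -0.85 ± 0.82 in AH cows, -0.82 ± 0.54 in CS cows and -1.43 ± 0.78 in RS cows (SD, n = 6 each), in CPM that are not scaled by gene length. No ratio between a pair of the genes differed between diets past an exact permutation p of 0.05. The lowest p was 0.145, for CYR61 to NOV in RS vs. CS, and the NOV to IGFBP3 ratio differed by 0.01 on the log2 scale between AH and RS.

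Which genes varied most like each of the 4 was ranked by the correlation of deviations from the diet means over 18 cows, among 13283 other genes. PDK4, a kinase that inhibits pyruvate dehydrogenase and spares glucose, was closest to APOLD1 (r = 0.84), and RGS1, a regulator of G protein signalling found mainly in leukocytes, was the third (r = 0.82). The r between APOLD1 and PDK4 was 0.83 in AH cows, 0.90 in CS cows and 0.77 in RS cows, and that between APOLD1 and RGS1 was 0.76, 0.91 and 0.85. PDK4 had 140 ± 82.1 CPM in AH, 65.6 ± 49.3 CPM in CS and 56.7 ± 24.1 CPM in RS (SD, n = 6 each). PDK4 is among the genes the study listed as higher in AH than in RS on these cows, so its diet order is not independent evidence. The second AH cow was the highest in PDK4, at 266 CPM, and the fifth followed at 204 CPM, which are the same cows that were highest in APOLD1. CYR61, NOV and IGFBP3 had r = 0.32, 0.13 and -0.13 with PDK4 on the same measure.

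For the other 3 genes, the 5 closest identifiers carry no symbol in the sources used here. Their r was 0.81 to 0.83 for CYR61, 0.90 to 0.94 for NOV and 0.90 to 0.94 for IGFBP3, and 5, 107 and 308 genes exceeded r = 0.8. Only 3 genes did so for APOLD1. Among all genes ranked for CYR61, NOV was number 66 and IGFBP3 number 106. Ranked for NOV, CYR61 was number 508 and IGFBP3 number 1039, and ranked for IGFBP3, CYR61 was number 1550 and NOV number 1982. Many other genes thus varied more like NOV and IGFBP3 than the other CCN and IGFBP genes described here did. The closest gene with a symbol for NOV was TPRG1, at number 48 (r = 0.84), which was singled out after its values were seen and which the study also listed as higher in AH than in RS. TPRG1 had 15.6 ± 12.2 CPM in AH, 7.17 ± 6.51 CPM in CS and 4.68 ± 2.94 CPM in RS (SD, n = 6 each). In the CS cow with the least NOV, TPRG1 was at 0.110 CPM, which is under the 3 reads that a count of 0 allows. These are correlations over the same 18 libraries, given as descriptions without a test.

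**Figure D5:**
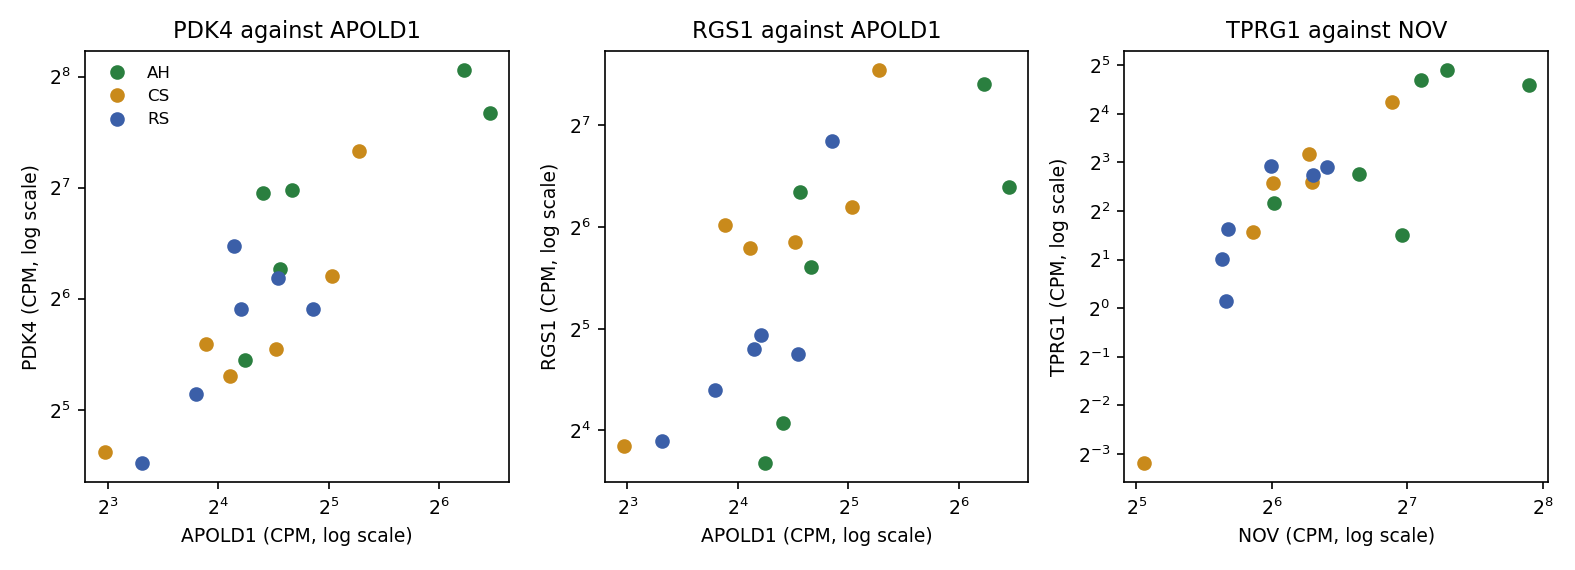
CPM of PDK4 and RGS1 against APOLD1 and of TPRG1 against NOV in each of the 18 cows, coloured by diet, on log2-spaced axes. PDK4 and RGS1 are high where APOLD1 is high, and the lowest TPRG1 point, at 0.110 CPM, is the CS cow with the lowest NOV level.

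The pathways around these genes could be followed to a small extent, because symbols for 7 of the 183 genes in the prepared lists could be paired with identifiers. In the CCN family list 2 of 6 genes were paired, and both are CYR61 and NOV. Likewise, 1 of 13 IGF-binding proteins and regulators was IGFBP3, and 2 of 22 YAP and TAZ target genes were CYR61 and IGFBP3. IGF ligands and receptors, integrin receptors of CCN proteins, EGF family genes, immediate-early genes, proliferation genes and the markers of endothelial, smooth muscle, immune and squamous epithelial cells had no paired gene, so these lists were not analysed here.

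ID1, a target of BMP signalling that restrains differentiation, was the 1 paired gene of 14 in the list of TGF-beta and BMP response genes. It had 75.6 ± 37.6 CPM in AH, 54.8 ± 24.0 CPM in CS and 34.0 ± 8.69 CPM in RS (SD, n = 6 each), the diet order of the 4 genes. Its log2 ratio of AH to RS was 1.15, with an exact permutation p of 0.0281 and a limma adjusted p of 1.00, and the study listed it with the 4 genes. Its r with IGFBP3 was 0.54 (rho 0.56) over the 18 cows, at permutation p-values of 0.0209 and 0.0168 that became 0.251 and 0.202 over the 12 relations between a gene and a list, and 0.45 without the 2 cows farthest from the median of IGFBP3. Within the diets that r was 0.62, 0.24 and 0.32 in AH, CS and RS cows. None of the 12 relations passed the adjustment, for r or for rho.

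Markers of other cell types in the papilla were given beside these results. FABP4, the fatty acid-binding protein of adipocytes that capillary endothelium also makes, was the 1 paired gene of 7 adipocyte markers. It ranged from 156 to 824 CPM in AH, 136 to 865 CPM in CS and 62.4 to 467 CPM in RS, with a log2 ratio of AH to RS of 1.03 and an exact permutation p of 0.0866. The study listed it too as higher in AH than in RS. Its means were 471 CPM in AH, 459 CPM in CS and 231 CPM in RS. Between RS and CS its log2 ratio was -0.99 (exact permutation p = 0.0606, limma adjusted p 1.00), beside -0.92 for CYR61 and -0.72 for IGFBP3, and between AH and CS it was 0.04, beside 0.32 for IGFBP3 and 0.93 for NOV. FBN1 and DPT, which encode matrix proteins of fibroblasts, were the 2 paired genes of 12 fibroblast markers. Their summed level ranged from 35.4 to 605 CPM in AH, 41.6 to 179 CPM in CS and 75.5 to 655 CPM in RS, and the exact permutation p between AH and RS was 0.660. Within AH, CS and RS cows this sum had r = 0.19, 0.75 and 0.91 with NOV, -0.46, 0.97 and -0.06 with IGFBP3, -0.30, 0.73 and -0.09 with CYR61, and 0.16, -0.43 and 0.11 with APOLD1. As deviations from the diet means over 18 cows, r with NOV was 0.50, with a permutation p of 0.0462 that became 0.555 over the 12 relations. None of the paired markers was at 0 in any cow, and the part of these cell types in the differences of the 4 genes was not tested.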

How the data were processed

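RNA of rumen papillae from 18 cows, 6 per diet, was sequenced. Per the paper's methods, the authors used TopHat2 for alignment to the bovine genome UMD3.1 and HTSeq for counts over Ensembl genes. The deposited values are CPM, relative to the total over all annotated genes of each cow. The labels' extraction text names rectal tissue and a total RNA kit, where the paper describes rumen papillae and an mRNA kit. The paper's account was followed. Neither source used here names a batch or lane, or states that the counting used strand.

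Each deposited CPM column rises in steps of 1 read, and whole reads were recovered for 100% of values at a tolerance of 0.02. A count of 0 allows 3 reads, or 0.186 CPM at the fewest and 0.0930 CPM at the most reads, and these floors cover counting error only, and PCR copies of one molecule were not told apart. No pair of cows on a diet was a repeat of one library (chi-square per degree of freedom 40.6 to 316 over 45 pairs). The labels number the cows, and p-values measure the spread between them.

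The 13284 genes that exceeded CPM 1 in 3 or more of the 6 cows on some diet were fitted on log2(CPM + 0.5) with limma 3.58.1 (R 4.3.3), in a model of the 3 diets over 18 cows with an intensity trend. This scale understates changes of low genes. Adjustment of p-values followed Benjamini and Hochberg over all genes tested. Log2 ratios are ratios of arithmetic mean CPM, and their standard errors come from the cow-to-cow spread. The 4 genes were tested singly with two-sided exact permutation tests (12 tests), whose p-values are given unadjusted. Correlations were tested by two-sided permutation tests, exact at 6 cows and with 100000 resamples at 18. Percentiles, ranks and medians over all genes used the 13284 genes.

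Alternatives changed the pseudocount, filter, cows, scaling, trend and robust option, added a replicate block, left out each cow in turn, and ran edgeR 4.0.16 (quasi-likelihood) and DESeq2 1.42.0 on the recovered reads. The fits were tested on simulated data. The genes, lists and tests were chosen with earlier results of these data known. Genes named were the 4 genes, list genes with the lowest unadjusted limma p in AH vs. RS (up to 3 a list), and the 5 genes most like each. TGM3 and DSG1 served as a check of the tissue. Symbols came from a supplementary table of the study that pairs 73 identifiers with names. In the RefSeq annotation of ARS-UCD, used for neighbours only, no gene overlapped the 4 genes. Sequences were not analysed here. Permutation tests and figures were made in Python 3.11.15 (scipy 1.17.1, pandas 2.3.3, numpy 2.4.6, matplotlib 3.10.9).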

Additional observations from a re-analysis of the deposited data

Results flagged for a closer look

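Cows far from the others of their diet were looked for in 24 groups of 6 cows, which are the 3 diets of the 4 genes and of ID1, FABP4, FBN1 and DPT. No cow stood apart in CYR61, NOV, IGFBP3 or APOLD1 by Dixon's test at the 95% level. This test takes the gap between the extreme cow and its neighbour as a share of the range, so 2 high cows can mask each other. For APOLD1 in AH, with 2 cows at 75.0 and 87.9 CPM, the share was 0.187. It was 0.403 for CYR61 in AH, with 2 cows at 146 and 223 CPM, so the test could not decide on such cows. The fibroblast marker FBN1 was at 448 CPM in the third AH cow and 389 CPM in the third RS cow, and DPT was at 157 CPM and 266 CPM in the same cows, each far above the other 5 cows of its diet. In the third AH cow NOV, CYR61 and IGFBP3 ranked 6, 11 and 11 of the 18 cows from the highest, and in the third RS cow they ranked 7, 16 and 15. Chance marks about 1 in 20 groups, and the 4 marks here come from 2 cows. The part of these cows' fibroblast markers in the differences between diets was not tested.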

How the results depend on the processing

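Over the settings tried, no fit called CYR61, NOV, IGFBP3 or APOLD1. The log2 ratio of mean CPM is the same under every pseudocount, filter, trend, robust option and replicate block, and with the compared cows alone. These settings therefore could not change the direction and did not test it. Counting them, the direction was kept in 287 of 288 values of a gene in a comparison. The exception was NOV in RS vs. CS without the fifth CS cow, where the log2 ratio was 0.016 (range -0.33 to 0.016 over single cows left out) and the exact p 0.952 (0.197 to 0.952). Leaving out single cows gave an exact p of 0.0022 to 0.0584 for CYR61 in AH vs. RS, where the highest came without the second RS cow, 0.0281 to 0.232 for APOLD1 in AH vs. RS, below 0.05 without the third, the fourth or the sixth AH cow, 0.0065 to 0.0606 for NOV in AH vs. CS and 0.0411 to 0.279 for CYR61 in RS vs. CS. The r of CYR61 with APOLD1 ran from 0.30 to 0.61 and that of NOV with APOLD1 from 0.25 to 0.63, both lowest without the fifth AH cow. On CPM in place of log2 values the latter was 0.67, which passed the test. As deviations from diet means, the r of CYR61 with APOLD1 was 0.34 and that of IGFBP3 with APOLD1 was -0.048, and under TMM scaling the former was 0.47. With the marker lists, deviations turned the sign for CYR61 with fibroblast markers (0.055), NOV with TGF-beta and BMP response genes (-0.12) and with adipocyte markers (-0.092), and APOLD1 with adipocyte markers (-0.079), while a mean of log2 levels gave 0.0063 for APOLD1 with fibroblast markers. None of these list relations passed the test. Of the 5 genes most like each, 2 were shared for CYR61, 0 for NOV, 1 for IGFBP3 and 3 for APOLD1 when diet means were kept.

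Over all genes, the numbers called were 1 in AH vs. RS, 1 for AH against CS and 0 for RS against CS. DESeq2 called 7 in AH vs. RS and 5 in AH vs. CS, the 12 cows alone gave 0 in AH vs. CS, and no filter gave 1 in RS vs. CS. Leaving out single cows gave 1 to 5, 1 to 2 and 0 to 6 calls, and both the 5 and the 6 came without the sixth RS cow. With the replicate block, these numbers were 2, 1 and 0, and no call on the 4 genes changed. For fermentation, papilla width and qRT-PCR, the paper names a randomized complete block design, but it ties no block to the replicate numbers. Blocks among these cows therefore remain possible. The replicate numbers were not taken to pair the cows, because no source used here says what a number marks. Also, 6 of the 18 same-numbered pairs had a correlation of deviations of 0.1 or less. The median was 0.20 over same-numbered pairs (-0.48 to 0.71) and -0.049 over other pairs, and 5 of 18 cows were closest to a cow of their own number. The cause of these shifts was not tested. Precision is limited by 6 cows per diet rather than by reads.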
